A study of Mus musculus with 20 samples.

Results

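The 10 genes described here encode subunits of voltage-gated calcium channels: 8 pore-forming alpha1 subunits (Cacna1a, Cacna1b, Cacna1c, Cacna1d, Cacna1e, Cacna1g, Cacna1h and Cacna1i) and 2 alpha2delta subunits (Cacna2d1 and Cacna2d3). They were taken by name from the 25317 genes of the count table, and all 10 were found and passed the filter on low counts in every comparison. RNA came from the cortex of 3-month-old C57BL/6 mice that were either wild type or carried a heterozygous Foxp2 deletion, with 1 animal per sample. Ribosomes bearing a GFP tag were pulled down from the lysate with antibodies to GFP (bacTRAP, called IP), and a portion of each lysate kept before the pull-down gave the Input. The compared libraries were 5 wild-type IP, 5 wild-type Input, 3 heterozygous IP and 3 heterozygous Input, from the wild types wt734, wt736, wt785, wtBT13 and wtBT14 and the heterozygotes het729, het786 and hetBT13. Both genotypes gave IP libraries. Which cells carry the tag, and the driver used, are not given in the sources used here. Foxp2 encodes a forkhead transcription factor made in deep-layer cortical neurons, and the comparison of genotypes asks which RNAs differ when an allele is lost.

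Voltage-gated calcium channels open when the membrane depolarises and let calcium into the cell. The alpha1 subunit forms the pore and sets the channel type, while alpha2delta and beta subunits carry the pore to the membrane and tune its opening. In cortical neurons, P/Q-, N- and R-type channels (the Cav2 class) admit the calcium that releases transmitter, L-type channels link activity to transcription, and T-type channels open near the resting potential and support burst firing.

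All 10 genes are long, and each is placed here on mm10 by the GENCODE annotation of that build. The Cav2 pores are Cacna1a (P/Q-type) at chr8:84388440-84640246 on the plus strand, Cacna1b (N-type) at chr2:24603887-24763152 on the minus strand and Cacna1e (R-type) at chr1:154390731-154884501 on the minus strand. The L-type pores are Cacna1c at chr6:118587240-119196418 and Cacna1d at chr14:30039939-30491455, both on the minus strand. The T-type pores are Cacna1g at chr11:94408391-94474198 and Cacna1h at chr17:25374285-25433783 on the minus strand, and Cacna1i at chr15:80287238-80398279 on the plus strand. Cacna2d1, whose protein binds gabapentin, lies at chr5:15934691-16374511 on the plus strand, and Cacna2d3 at chr14:28904943-29721864 on the minus strand. Exons of 1 gene, merged over its transcripts, add up to between 8.72 kb (Cacna2d3) and 25.23 kb (Cacna1e). The libraries do not mark strand, and Cacna1a shares 3.81% of its exonic bases with Gm16183, Cacna1d 4.67% with Chdh and Cacna1h 1.62% with Tpsg1, all on the opposite strand, so reads from those stretches cannot be assigned to either gene.

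RefSeq promoter windows, running from 250 bases before to 50 bases after a start site on GRCm38.p6, were at hand for 7 of the 10 genes, as 10 windows. Both windows of Cacna1d are printed, because it was the gene with the most negative genotype difference in Input and held the only match to the forkhead-type motifs searched. The first window, chr14:30353437-30353736 on the minus strand, is 87.3% G or C with 63 CpG dinucleotides. The second, chr14:30491107-30491406 on the minus strand, is 40.3% G or C with 4 CpG dinucleotides, against a median of 52.7% over all 32851 windows. Capitals in the second mark the motif that was found.
Cacna1d, first window: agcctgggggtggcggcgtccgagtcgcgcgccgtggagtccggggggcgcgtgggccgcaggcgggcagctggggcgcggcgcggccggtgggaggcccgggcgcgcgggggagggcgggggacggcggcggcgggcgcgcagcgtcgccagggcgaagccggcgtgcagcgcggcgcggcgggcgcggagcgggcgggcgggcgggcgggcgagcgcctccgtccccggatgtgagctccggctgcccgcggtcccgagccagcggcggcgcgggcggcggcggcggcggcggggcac
Cacna1d, second window: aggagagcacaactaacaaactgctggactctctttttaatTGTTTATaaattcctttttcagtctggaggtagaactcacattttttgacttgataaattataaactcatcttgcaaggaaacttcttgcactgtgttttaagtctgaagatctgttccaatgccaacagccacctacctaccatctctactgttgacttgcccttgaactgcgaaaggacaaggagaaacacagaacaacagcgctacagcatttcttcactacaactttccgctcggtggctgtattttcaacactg
Each motif was searched on both strands. TGTTTAT was present in 1 of the 10 windows, against 4.6% of all windows. TGTTTAC, which differs from it in the last base and cannot occupy the same position, was in 0 of the 10 against 3.65%, and CAAATT was in 0 of the 10 against 11%. A match describes the letters and not a bound site, and the absence of a match says nothing about the factor.

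The compared libraries held 2782934 to 5754169 counts, with IP deeper (4061562 to 5754169) than Input (2782934 to 4072270). A further 4 heterozygous libraries labelled Input, kept out of the comparisons, held 2689544 to 5621906 counts. Foxp2 itself, the targeted gene, was at 24 to 30.9 CPM (counts scaled to a common library size by TMM) in heterozygous Input and 38.0 to 63.8 CPM in wild-type Input, without overlap. In IP it was at 31.8 to 55.6 CPM in heterozygotes and 45.3 to 103 CPM in wild types, and these ranges overlap. Mitochondrial transcripts made up 0.0616% to 0.127% of an IP library, or 0.398% in het729, and 0.928% to 1.86% of a compared Input library. Markers of cortical glutamatergic neurons were present in every group and 5 markers of striatal neurons summed to 1090 to 1410 CPM in Input although the protocol removes the basal ganglia. The channel genes rest on few reads: median counts ran from 25 for Cacna1c, which fell to 4 in a library, to 282 for Cacna2d1. Without molecular identifiers these reads are not independent molecules.

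To set different genes side by side, levels were divided by kilobases of exon, merged over all transcripts of a gene. A merged length can exceed that of any 1 transcript, which lowers the value. It was largest for Cacna1e (25.23 kb) and Cacna1c (21.19 kb). On this scale Cacna2d3, Cacna1b and Cacna2d1 stood highest in wild-type IP, at means of 7.93, 7.01 and 5.78 CPM per kb. The ranges of these neighbours overlapped over the 5 libraries. Below a gap came Cacna1e (2.09), Cacna1g (1.72), Cacna1a (1.68), Cacna1i (1.52), Cacna1d (1.10) and Cacna1h (1.07), each overlapping the next. Cacna1c was lowest at 0.404 CPM per kb, apart from all others. In wild-type Input the order was led by Cacna2d1 (4.97) and Cacna2d3 (4.78), which overlapped, followed without overlap by Cacna1b (3.56). Cacna1i (1.17), Cacna1g (1.05), Cacna1e (1.04), Cacna1a (0.811), Cacna1h (0.781) and Cacna1d (0.648) then overlapped in turn, and Cacna1c (0.217) was again lowest. On this scale N-type Cacna1b was thus the most abundant pore RNA of the list in both fractions, and the alpha2delta genes lay beside it.

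**Figure D1:**
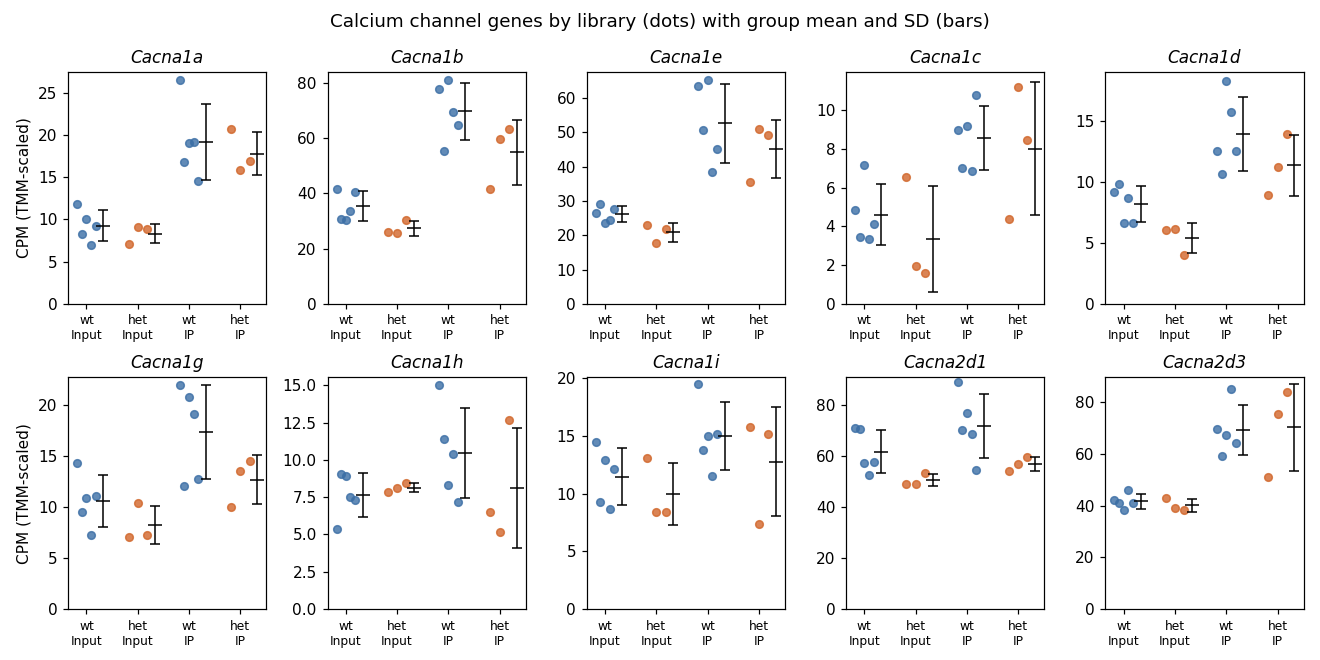
Each panel shows the TMM-scaled CPM of 1 gene in the 5 wild-type (blue) and 3 heterozygous (orange) animals, in Input and IP; dots are libraries and bars give the group mean and SD. Cacna1a, Cacna1e and Cacna2d3 lie higher in every IP library than in any Input library, while the IP and Input ranges of Cacna1h and Cacna2d1 overlap. The share of all tested genes that separate in this way was not counted.

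RNA of most of these channel genes took a larger share of the pull-down than of the lysate it came from. In wild types 9 of the 10 passed as higher in IP (edgeR, adjusted p below 0.05 over 14797 genes), where 28.5% of all tested genes did, and 0 passed as lower, where 25.6% did. In heterozygotes 7 of 10 passed as higher, against 22.6% of all genes, and 0 as lower, against 22.1%. The median log2 change of the 10 was 0.74 in wild types and 0.87 in heterozygotes, beside 0.03 and 0.04 for all tested genes. Long genes as a whole leaned the same way: among the 1958 tested genes with at least as much exon as Cacna2d3, the medians were 0.22 and 0.24, and 42.2% and 34.6% passed as higher. IP and Input of an animal were compared within that animal throughout. Where a gene is said below to have no overlap between IP and Input, the share of all tested genes that separate likewise was not counted. Such a separation is therefore not shown to be particular to these genes. The number of channel genes passing was 7 to 9 in wild types and 4 to 7 in heterozygotes over 15 alternative settings, the lowest in heterozygotes without hetBT13 or with the animals named by number alone.

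All 3 Cav2 pores passed in both genotypes and under each of the 15 alternatives, as did Cacna2d3. Cacna1b, the N-type pore of presynaptic terminals, was at 77.9, 55.2, 81.1, 69.3 and 64.7 CPM in the IP of wt734, wt736, wt785, wtBT13 and wtBT14, and at 41.7, 30.6, 30.2, 33.7 and 40.6 CPM in their Input. In het729, het786 and hetBT13 it was at 41.4, 59.6 and 63.3 CPM in IP and 26.1, 25.6 and 30.5 CPM in Input. Every animal was higher in IP, and the fractions did not overlap within either genotype. The fold was 1.98 in wild types (log2 0.98, SE 0.11, adjusted p = 2.38e-07) and 1.96 in heterozygotes (log2 0.97, SE 0.15, adjusted p = 3.09e-05).

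Cacna1a, the P/Q-type pore, was at 26.5, 16.8, 19.1, 19.2 and 14.5 CPM in wild-type IP and at 11.8, 8.24, 10.1, 6.96 and 9.20 CPM in wild-type Input, animals in the same order. The heterozygotes had 20.7, 15.8 and 16.9 CPM in IP and 7.05, 9.08 and 8.84 CPM in Input. No IP library came down to the highest Input library. The fold was 2.08 in wild types (log2 1.06, SE 0.16, adjusted p = 1.28e-05) and 2.15 in heterozygotes (log2 1.11, SE 0.22, adjusted p = 0.000361).

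Cacna1e, the R-type pore, stood at 63.6, 50.7, 65.3, 38.6 and 45.3 CPM in wild-type IP against 26.4, 29.0, 23.6, 24.5 and 27.6 CPM in Input. In the heterozygotes it stood at 35.6, 51.0 and 49.2 CPM against 23.0, 17.8 and 21.7 CPM. Here too all IP libraries were above all Input libraries. The fold was 2.0 in wild types (log2 1.0, SE 0.14, adjusted p = 2.53e-06) and 2.13 in heterozygotes (log2 1.09, SE 0.19, adjusted p = 6.87e-05).

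The L-type pores also passed in both genotypes, with less margin. Cacna1d was at 12.5, 10.6, 18.3, 15.7 and 12.5 CPM in wild-type IP and 9.15, 9.83, 6.61, 8.64 and 6.66 CPM in Input, and at 8.94, 11.2 and 13.9 against 6.01, 6.16 and 4.02 CPM in heterozygotes. The fractions did not overlap within a genotype, and the fold was 1.68 in wild types (log2 0.75, SE 0.20, adjusted p = 0.0033) and 2.02 in heterozygotes (log2 1.01, SE 0.29, adjusted p = 0.00685). Cacna1c, the other L-type pore of the list, had a fold of 1.89 in wild types (log2 0.92, SE 0.30, adjusted p = 0.0159) and 2.17 in heterozygotes (log2 1.12, SE 0.43, adjusted p = 0.0402). Its heterozygous libraries disagreed: IP over Input was 0.671 in het729 but 5.75 in het786 and 5.25 in hetBT13, on Input counts of 25, 6 and 4. Cacna1c missed the threshold in wild types without wtBT14 (adjusted p = 0.061), and in heterozygotes without het786 (log2 0.52, adjusted p = 0.414), hetBT13 (0.246), wt734 (0.0546), wt736 (0.052) or wtBT13 (0.0519), while without het729 its heterozygous log2 change was 2.44. Other settings that ended the heterozygous call of Cacna1c were limma-voom (0.0601) and number-named animals alone (0.269), and the latter also ended its wild-type call (0.132). Cacna1d missed the threshold in heterozygotes without hetBT13 (adjusted p = 0.101) and with number-named animals alone (0.0906).

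The T-type pores differed from gene to gene. Cacna1g was at 22.0, 12.1, 20.8, 19.2 and 12.8 CPM in wild-type IP and 14.3, 9.57, 10.9, 7.24 and 11.1 CPM in Input, higher in IP in 5 of 5 wild types and 3 of 3 heterozygotes. The ranges of the fractions overlapped in both genotypes, at 9.99 to 14.5 CPM in IP against 7.05 to 10.4 CPM in Input in heterozygotes. Its fold was 1.63 (log2 0.71, SE 0.17, adjusted p = 0.00171) in wild types and 1.53 (log2 0.61, SE 0.25, adjusted p = 0.048) in heterozygotes. Cacna1i had a smaller fold of 1.32 in wild types (log2 0.40, SE 0.16, adjusted p = 0.0413), higher in 5 of 5 animals, and did not pass in heterozygotes (log2 0.32, SE 0.22, adjusted p = 0.251). Cacna1h did not pass in either genotype. It was at 15, 11.4, 8.32, 10.4 and 7.15 CPM in wild-type IP and 5.39, 9.03, 8.91, 7.52 and 7.29 CPM in Input (log2 0.45, SE 0.22, adjusted p = 0.0932), and IP over Input was 0.828, 0.634 and 1.5 in het729, het786 and hetBT13 (log2 -0.08, SE 0.30, adjusted p = 0.846). The heterozygous call of Cacna1g was lost without het729, het786, hetBT13, wt734, wt736 or wt785 (adjusted p from 0.0501 to 0.26), and also with DESeq2 (0.113), limma-voom (0.0695), RLE size factors (0.0607), a count minimum of 30 (0.0508), no block (0.0799) or number-named animals alone (0.197), so it held in 3 of 15 alternatives. The wild-type call of Cacna1i held in 5 of 15: it was lost without het729, wt734, wt736, wt785, wtBT13 or wtBT14 (adjusted p from 0.0543 to 0.123), with DESeq2 (0.126), RLE size factors (0.0543), no block (0.116) or number-named animals alone (0.0791). Cacna1h passed in wild types only without the filter on low counts (adjusted p = 0.0465).

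The alpha2delta genes parted from each other. Cacna2d3 was at 69.8, 59.3, 67.2, 85.0 and 64.3 CPM in wild-type IP and 42.3, 40.9, 38.2, 46.2 and 40.9 CPM in Input, and at 51.2, 75.6 and 83.9 against 43.1, 39.2 and 38.2 CPM in heterozygotes. All IP libraries were above all Input libraries, with a fold of 1.66 in wild types (log2 0.73, SE 0.11, adjusted p = 9.31e-06) and 1.70 in heterozygotes (log2 0.77, SE 0.15, adjusted p = 0.000212). Cacna2d1 was at 88.8, 70.3, 76.6, 68.7 and 54.6 CPM in wild-type IP and 70.8, 70.7, 57.2, 52.4 and 57.4 CPM in Input, higher in IP in only 3 of 5 wild types. Its fold was 1.17 (log2 0.22, SE 0.09, adjusted p = 0.0493) in wild types and 1.13 in heterozygotes (log2 0.17, SE 0.13, adjusted p = 0.270), where it did not pass. The IP over Input ratio of Cacna2d3 was above that of Cacna2d1 in 8 of 8 animals, as were those of Cacna1a, Cacna1b and Cacna1e. The wild-type call of Cacna2d1 was lost without het729, het786, wt734, wt785 or wtBT13 (adjusted p from 0.0523 to 0.2), and with DESeq2 (0.15), RLE size factors (0.0767), no filter on low counts (0.0571), a count minimum of 30 (0.061) or no block (0.1), so it held in 5 of 15 alternatives.

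**Figure D2:**
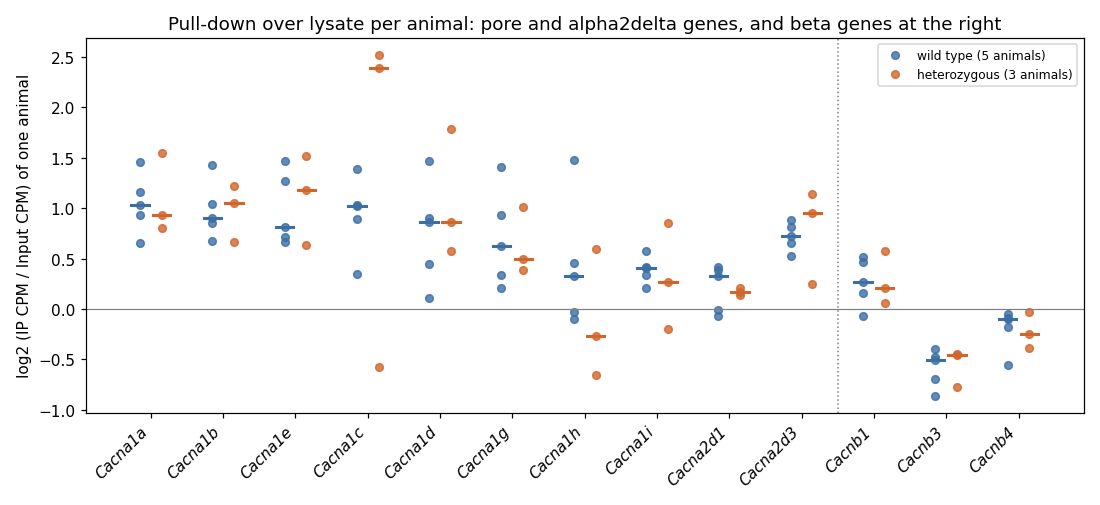
The log2 ratio of IP CPM to Input CPM is shown for each animal, blue for 5 wild types and orange for 3 heterozygotes, with a line at the median; Cacnb1, Cacnb3 and Cacnb4, genes of beta subunits, stand right of the dotted line. Cacna1a, Cacna1b and Cacna1e lie above 0 in all 8 animals and Cacnb3 lies below 0 in all 8.

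Genes of the channel complex outside the 10 were tested in the same way. Of 28 other calcium channel genes (further alpha1 and alpha2delta genes, beta and gamma subunits, and proteins that bind or anchor the channel), 20 passed the filter. In wild types 6 of these passed as higher in IP and 7 as lower, shares of 30% and 35% that lie near or somewhat above the 28.5% and 25.6% of all tested genes. In heterozygotes 2 passed in each direction, or 10%, below the 22.6% and 22.1% of all genes. Their median log2 values were -0.18 and 0.02. The other 8 (Cacna1f, Cacna1s, Cacng1, Cacng7, Cacng8, Rem1, Stac and Stac3) were at 3.49 CPM or less in every library and were not tested. Among the beta subunits, which carry the pore to the membrane, Cacnb1 was higher in wild-type IP (log2 0.28, SE 0.09, adjusted p = 0.0131), Cacnb2 lower (log2 -0.79, SE 0.24, adjusted p = 0.00767) and Cacnb3 lower (log2 -0.58, SE 0.08); Cacnb4 did not pass (log2 -0.19, adjusted p = 0.0619). Each Cav2 pore was higher in IP and Cacnb3 lower in IP in 8 of 8 animals, so the order of their ratios is given by these signs. The Cav2 pores were not set against Cacnb1 in this way. Of the gamma subunits, several of which traffic AMPA receptors, Cacng5 was higher (log2 0.52) and Cacng2 (log2 -0.27), Cacng3 (log2 -0.45) and Cacng4 (log2 -0.69) were lower in wild types. Also higher in wild-type IP were Cabp1 (log2 0.84), a calcium sensor that binds channels, Rimbp2 (log2 0.80) and Rims1 (log2 0.42), which hold Cav2 channels at the active zone, and Rem2 (log2 0.34), a small GTPase. Cacna2d4 (log2 -1.08) and Stac2 (log2 -0.37) were lower. In heterozygotes Cabp1 (log2 0.97) and Rims1 (log2 0.59) passed as higher and Cacnb3 (log2 -0.56) and Cacng3 (log2 -0.45) as lower.

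**Figure D3:**
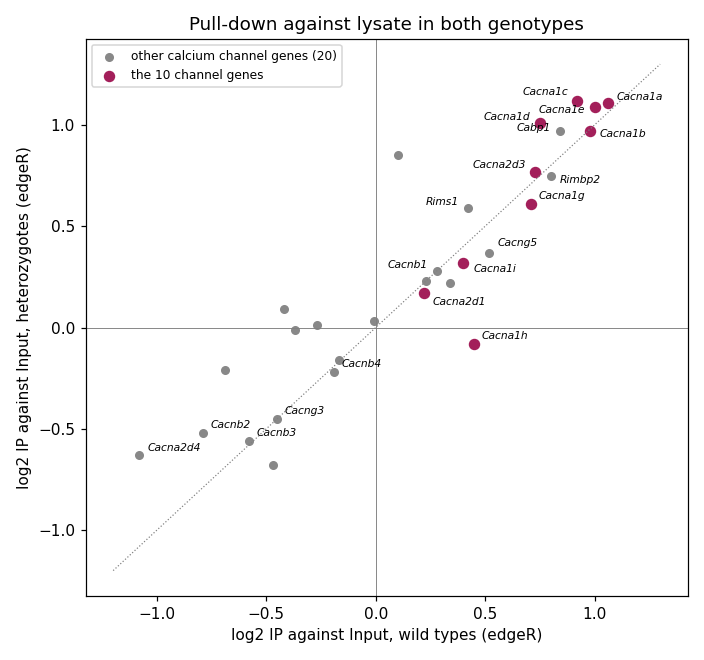
The fitted log2 change between IP and Input in wild types (x axis) is plotted against that in heterozygotes (y axis) for the 10 channel genes (purple) and 20 other calcium channel genes (grey); the dotted line marks equal values. The purple points sit between 0.22 and 1.06 on the x axis, with Cacna1h alone below 0 on the y axis, at -0.08.

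Cell-type markers moved between the fractions as well. In wild types 5 of 5 cortical glutamatergic markers passed as higher in IP (summed level 547 to 591 CPM against 359 to 441 CPM in Input), 6 of 6 interneuron markers as lower (478 to 632 against 1040 to 1160 CPM) and 5 of 5 striatal markers as lower (376 to 476 against 1090 to 1330 CPM). Among glial markers, 4 of 5 oligodendrocyte markers passed as lower (648 to 900 against 2860 to 3890 CPM), and 4 of 5 astrocyte markers as lower with 1 as higher (260 to 443 against 449 to 733 CPM). For microglia 2 of 5 passed as lower and 0 as higher. Thalamic markers split, with 2 of 5 passing as higher and 2 as lower. Of 4 endothelial markers 2 were tested and 1 passed as lower. None of these markers was at 0 in a group. In such bulk samples fewer cells of a type and less RNA per cell cannot be told apart, and the part of cell makeup in the channel ratios was not tested.

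No channel gene passed between genotypes. In IP 0 of the 10 passed at an adjusted p below 0.05 (edgeR, 3 against 5 libraries), as did 0.0% of 14755 tested genes, and in Input 0 of 10 and 0.0% of 13870. DESeq2 called 3 genes in IP and 0 in Input, and limma-voom called 0 in both, while edgeR without the filter on low counts called 28 in Input. None of these was a channel gene. In sign, 9 of the 10 were lower in heterozygotes in IP and 9 of 10 in Input, at median log2 differences of -0.27 and -0.30, where all tested genes had medians of 0.003 and 0.01. Long tested genes leaned lower as well, with 61.9% lower and a median of -0.06 in IP and 61.6% and -0.05 in Input. The exceptions were Cacna2d3 in IP (log2 0.02, SE 0.16) and Cacna1h in Input (log2 0.09, SE 0.23).

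Cacna1b differed by -0.35 (log2, SE 0.16, adjusted p = 0.981) in IP and -0.36 (SE 0.15, adjusted p = 0.683) in Input, from the values given above. Its heterozygous Input, 25.6 to 30.5 CPM, reached just above the lowest wild type at 30.2 CPM. Cacna2d1 was at 54.1, 56.7 and 59.6 CPM in heterozygous IP and 49.1, 49.0 and 53.1 CPM in heterozygous Input, each range reaching past the lowest wild type of its fraction, 54.6 and 52.4 CPM. It differed by -0.34 (SE 0.14, adjusted p = 0.981) in IP and -0.29 (SE 0.12, adjusted p = 0.683) in Input. Cacna1d in Input differed by -0.57 (SE 0.25, adjusted p = 0.683) and Cacna1e in Input by -0.32 (SE 0.15, adjusted p = 0.697). For Cacna1d and Cacna1e the 3 heterozygous Inputs lay below all 5 wild-type Inputs. The 4 heterozygous libraries of het730 and hetBT14, labelled Input with titles ending in IX or IXX and kept out of the comparison, did not all do so: Cacna1e reached 26.3 CPM there against a wild-type minimum of 23.6 CPM, and Cacna1d 7.11 against 6.61 CPM. With these libraries added, Cacna1d differed by -0.63 and Cacna1e by -0.28 (adjusted p = 0.686 for both), Cacna2d1 by -0.11, and the median of the 10 genes was -0.14.

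Before adjustment, 2 of the 10 genes (Cacna1b and Cacna2d1) had a p below 0.05 with a lower level in heterozygous IP, where 3.08% of all tested genes did, and 4 (Cacna1b, Cacna1d, Cacna1e and Cacna2d1) in Input, where 3.79% did. No channel gene had every heterozygote below every wild type in IP (1.69% of genes did), and 2 had in Input (Cacna1d and Cacna1e; 2.89% of genes did). The other members differed by -0.11 (Cacna1c) to -0.45 (Cacna1g) in IP, apart from Cacna2d3, and by -0.04 (Cacna2d3) to -0.36 (Cacna1g) in Input, apart from Cacna1h. Their SEs ran up to 0.40, for Cacna1c in Input, and none passed the adjusted threshold. That Cacna1c difference of -0.32 was -1.33 without het729, and -0.04, -0.05 and -0.11 without het786, hetBT13 and wt785. The Cacna1h difference in IP, -0.37 (SE 0.31), was -0.86 without hetBT13 and -0.14 without het786. With number-named animals alone it was -1.01.

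Summed over the 10 genes, IP held 302 to 405 CPM in wild types and 248, 307 and 338 CPM in het729, het786 and hetBT13, with overlap. Input held 199 to 241 CPM in wild types and 176 to 189 CPM in the 3 compared heterozygotes, without overlap. The 4 further heterozygous Input libraries, of het730 and hetBT14, held 179 to 224 CPM and reached into the wild-type range. These sums follow the abundant genes most: in wild-type Input the means were 61.7 CPM for Cacna2d1 and 41.7 CPM for Cacna2d3 but 4.59 CPM for Cacna1c. How often sums over as many other genes separate the genotypes was not counted. The lowest IP sum belonged to het729, the IP library with the highest mitochondrial share, and without that animal the median difference in IP was -0.21. Without hetBT13 it was -0.38, and without wt734 it was -0.18. Animals carry either a plain number or a BT number in their titles, and the labels do not say what the forms stand for. Among the number-named animals, the heterozygous mean in IP was below the wild-type mean for 10 of 10 genes, with a median of 72.0% of wild type; among the BT animals, 1 heterozygote against 2 wild types, it was below for 5 of 10, with a median of 99.2%. In Input it was below for 8 of 10 for both forms, at medians of 78.9% and 82.8%. Without the distinction the medians were 83.3% in IP and 80.5% in Input, and in IP the lower sign held for all 10 genes in the number-named animals alone. Of all tested genes, 49.3% were lower in sign in heterozygous IP and 48.7% in heterozygous Input. Beside these shares, 4 of 5 astrocyte and 5 of 5 microglial markers were lower in sign in IP (medians -0.51 and -0.41). So were 4 of 5 oligodendrocyte (-0.11) and 2 of 2 tested endothelial markers (-0.5). Neuronal lists were lower in IP for 2 of 5 glutamatergic (0.08), 2 of 6 interneuron (0.03) and 1 of 5 striatal markers (0.02). The same neuronal lists had 3 of 5 (-0.02), 1 of 6 (0.11) and 2 of 5 (0.02) lower in Input. In Input the lower signs were 4 of 5 for astrocytes (median -0.41; summed level 409 to 486 against 449 to 733 CPM), 4 of 5 for microglia (-0.23; 90.9 to 111 against 92.3 to 128 CPM), 4 of 5 for oligodendrocytes (-0.08; 2710 to 3640 against 2860 to 3890 CPM) and 5 of 5 for thalamus (-0.06; 205 to 225 against 230 to 252 CPM). The summed thalamic level did not overlap between genotypes in Input. In IP it did (163 to 178 against 172 to 202 CPM), with 3 of 5 thalamic markers lower in sign (median -0.15). None of these markers passed the threshold in either fraction, and their part in the channel differences was not tested.

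**Figure D4:**
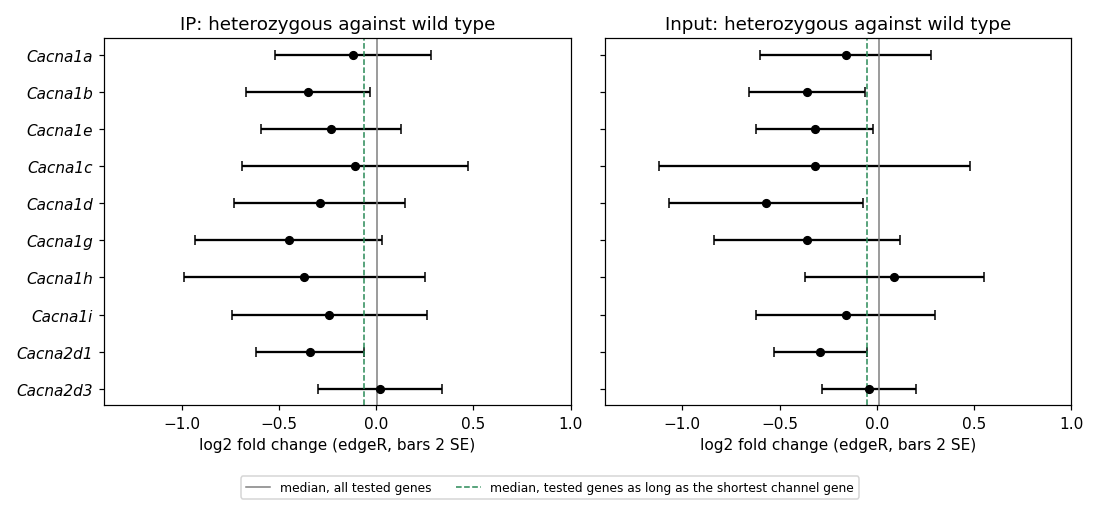
Fitted log2 differences, heterozygous minus wild type, are plotted for the 10 genes in IP (left) and Input (right), with bars of 2 SE; the grey line is the median of all tested genes and the dashed green line that of the long tested genes. Most points lie left of both lines, and no gene passed the adjusted threshold.

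Other calcium channel genes gave no call between genotypes either: 7 of 20 were lower in sign in IP (median 0.06) and 14 of 20 in Input (median -0.05). The smallest p-values belonged in IP to Cacnb2 (log2 0.48, SE 0.26, adjusted p = 0.981) and Cacna2d2 (log2 0.40, SE 0.31, adjusted p = 0.981), and in Input to Stac2 (log2 -0.26, SE 0.14, adjusted p = 0.713) and Cacng2 (log2 -0.21, SE 0.12, adjusted p = 0.726).

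Whether the genotype difference itself differed between IP and Input was tested in the fit of 16 libraries. It passed for 0 of the 10 genes and 0.0% of 14797 tested genes, and before adjustment for 0 of the 10, where 3.07% of genes had a p below 0.05. The largest difference was that of Cacna1h, at -0.53 (SE 0.38, adjusted p = 1), and the other 9 lay between -0.10 and 0.27. Among the 20 other calcium channel genes the smallest p-values belonged to Stac2 (0.36, SE 0.21) and Cacng2 (0.28, SE 0.16), neither past the threshold.

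After group means were removed, the mean log2 level of the 10 genes over the 16 libraries was followed most closely by Ptprn2 (Pearson r = 0.90), Hook3 (0.90), Arhgef17 (0.88), Chd2 (0.87) and Rtn4r (0.86), among 12171 other genes with a mean of at least 5 CPM. These were picked as the highest of many, and the libraries share depth and preparation. Each channel gene correlated with the mean of the other 9 at r from 0.19 (Cacna1c and Cacna1h) to 0.65 (Cacna1g).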

How the data were processed

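RNA of cortex from 10 mice was measured in 20 Smart-seq2 libraries, a protocol that marks neither strand nor molecules. The deposited values are raw counts of reads by Ensembl gene. The submitters' processing notes name HTSeq and the mm10 build. The aligner, annotation and strand setting are not given in the sources used here. Each column of the table matched 1 library by its title. Of 25317 identifiers, 24873 were matched to a gene name and exon length in GENCODE M21, an annotation of the same build.

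Low genes were removed by filterByExpr at a count minimum of 10, and library sizes were set by TMM. Tests were the robust quasi-likelihood F tests of edgeR 4.0.16 in R 4.3.3, with Benjamini-Hochberg adjustment over all tested genes and a threshold of 0.05. SEs were derived from the log2 change and F. Genotype was tested in each fraction on 3 against 5 libraries, and IP against Input and the interaction in 1 model over 16 libraries that keeps the animal as a block, since an animal's IP and Input come from 1 lysate. Deviations from the group means in a pair had r from 0.056 to 0.214 over 14797 genes. CPM use TMM sizes over all 20 libraries, and errors are SD over animals.

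Alternatives were DESeq2 1.42.0, limma-voom (limma 3.58.1), RLE size factors, no filter, a count minimum of 30, each animal left out, no block, the form of the animal's name as a covariate, and 4 further heterozygous Input libraries added. A fit on number-named animals alone was chosen after seeing the data. The model fits were also run on simulated counts, drawn with the same dispersion for every gene and no animal effect, which is simpler than these data.

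The members and gene lists were chosen with earlier results of these data known. All 10 members are named; of the other calcium channel genes, those called in a comparison, or the 2 of smallest p where none was; and the 5 genes most like the members' mean.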

Additional observations from a re-analysis of the deposited data

How the results depend on the processing

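Over 15 alternatives the count of channel genes called between IP and Input was 7 to 9 in wild types and 4 to 7 in heterozygotes. In heterozygotes it was 4 with number-named animals alone, and leaving out 1 animal gave 4 to 7; without the replicate block, which drops the pairing by animal, 7 passed in wild types and 6 in heterozygotes. Genotype gave 0 channel genes in either fraction under every alternative run, and so did the interaction; the median difference ran from -0.48 to -0.18 in IP and from -0.36 to -0.14 in Input, the latter with het730 and hetBT14 added. Some values changed sign, and the cause was not tested. Not all of them were near 0 in the main fit. Among them were the genotype difference of Cacna1i in IP (-0.24) and the interactions of Cacna1c (0.20) and Cacna1d (0.27). With number-named animals alone, Cacna2d3 differed between genotypes by -0.05 in IP and 0.02 in Input, and the interaction was -0.00674 for Cacna1c, -0.15 for Cacna1e and -0.12 for Cacna2d3. Without the replicate block, Cacna1h changed by 0.0053 in heterozygotes and the Cacna1b interaction was 0.02. Leaving out 1 animal moved the genotype difference in IP from -0.42 to 0.19 for Cacna1c, -0.24 to 0.02 for Cacna1a, -0.13 to 0.20 for Cacna2d3 and -0.42 to 0.03 for Cacna1i, and in Input from -0.02 to 0.17 for Cacna1h. The heterozygous IP change of Cacna1h then ran from -0.45 to 0.17. Interactions ran from -0.20 to 0.21 for Cacna1a, -0.13 to 0.15 for Cacna1b, -0.40 to 1.53 for Cacna1c, -0.04 to 0.52 for Cacna1d, -0.11 to 0.35 for Cacna1e, -0.27 to 0.06 for Cacna1g, -0.32 to 0.12 for Cacna1i, -0.12 to 0.0042 for Cacna2d1 and -0.14 to 0.30 for Cacna2d3. Low counts limit Cacna1c most, at 4 to 61 reads per library.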

Other observations

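Heterozygous animals het730 and hetBT14 have 2 libraries each, labelled Input with titles ending in IX or IXX, and no IP. Summed over the 10 channel genes these 4 libraries held 179 to 224 CPM, beside 176 to 189 CPM in the 3 heterozygous Inputs and 199 to 241 CPM in the 5 wild-type Inputs. Cacna2d1 was at 77.3 and 58.4 CPM in the IX and IXX libraries of het730 and at 65.7 and 64.3 CPM in those of hetBT14, all above the heterozygous Inputs at 49.0 to 53.1 CPM and within or above the wild-type range of 52.4 to 70.8 CPM. Cacna1d was at 5.07, 7.11, 4.87 and 3.09 CPM in the same order, so 3 of the 4 lay below the lowest wild-type Input at 6.61 CPM. Cacna1b was at 26.2 and 25.5 CPM in het730 but 35.7 and 40.2 CPM in hetBT14. For this gene the pair of libraries from an animal lay closer together than the animals did. That did not hold for Cacna1d, or for Cacna2d1, where the het730 values lay to either side of the hetBT14 values.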
